A study of Mus musculus with 18 samples.

Results

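The response of macrophages lacking Wbp7 to 4 h of lipopolysaccharide (LPS) was measured in 6 arrays of the 18 in the study, the 3 labelled Wbp7-/- after 4 h of LPS and the 3 labelled Wbp7-/- and left untreated. For each gene the change was the log2 signal at 4 h minus that of the untreated array with the same genotype and replicate number. The cells were primary macrophages grown from mouse bone marrow in medium conditioned by L929 cells and taken on day 7 of differentiation, from mice of a mixed background of 94% C57BL/6 and 6% 129/Ola, and LPS was given at 10 ug/ml. The remaining 12 arrays held Wbp7-/- cells after 2 h of LPS and Wbp7+/- cells untreated and after 2 h and 4 h, again with 3 arrays per group. Below, Wbp7-/- is called KO and Wbp7+/- is called HET, so the reference genotype itself carries 1 disrupted allele. The labels do not say how the allele was disrupted, how old the mice were, or whether the replicates came from separate mice, so p-values measure only the spread between these cultures, which may be technical.

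Wbp7, also named Kmt2b, encodes a methyltransferase that places methyl groups on lysine 4 of histone H3. LPS, a component of the outer membrane of Gram-negative bacteria, is passed by the surface protein Cd14 to a receptor made of Tlr4 and Ly96. The receptor signals through Myd88 to NF-kB and the MAP kinases, which switch on cytokine and chemokine genes within a short time, and through Ticam1 to interferon beta, which then acts back on the cells and induces a later set of antiviral genes. Macrophages under LPS also stop dividing, change their metabolism and make proteins that limit the response.

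The 19475 genes were tested together with limma, with each culture (genotype and replicate number) as a term, and genes with a Benjamini-Hochberg adjusted p under 0.05 count as called. The verbs rose and fell are used for called genes alone. All levels and changes are on the log2 scale of the deposited signal, n = 3 cultures per group, and SE is the standard error of the fit. Array medians lay between 8.05 and 8.13, and the lower quartile between 6.78 and 7.09. The 3 KO arrays of a group differed little from each other (SD of the difference over genes 0.175 to 0.26). The HET arrays of replicate 1 stood apart from those of replicates 2 and 3 (0.435 to 0.531, against 0.261 to 0.279), so the main counts that involve HET are also given without that replicate. Its cell cycle genes were low from the start, with a mean signal of 9.07 untreated against 11.41 to 11.56 in the other 5 untreated arrays. The macrophage markers had a mean signal of 12.99 to 13.07 in untreated KO arrays and 13.07 to 13.15 at 4 h. Neutrophil markers lay at 8.09 to 8.43 and 8.32 to 8.69. The steady macrophage mean covers single changes, since 4 of the 9 macrophage markers rose and 1 fell, over a range of −1.34 to 0.92.

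The probe set for Wbp7 (10562005) read 10.35, 10.41 and 10.47 in untreated KO arrays and 9.94, 10.21 and 10.09 at 4 h. This is above the median of every array in cells labelled as lacking the gene, and its place on the transcript was not analysed here, so it does not check the genotype. Its change with LPS was −0.33 (SE 0.14, adjusted p by limma 0.0959). Pigp, which belongs to the complex for the first step in making glycosylphosphatidylinositol (GPI) anchors, has a second probe set (10545528) that read 4.06 to 5.65 in the KO arrays and 8.26 to 9.52 in the HET arrays, with no overlap.

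LPS changed a large part of the transcriptome of KO cells in 4 h. By limma, 2084 genes rose, or 10.7% of the genes tested, and 3491 fell, or 17.9%. These shares are the background for every list count of this response below. The falls were more numerous but shallower. Past a 2-fold change, 612 genes rose (3.14%) and 384 fell (1.97%). Among the called genes 41 rose by over 4 log2 units, and 22 fell by over 2 and 0 by over 3. The median over all genes tested was 0.023. In 5563 of the 5575 called genes (28.6% of those tested) the 3 cultures all moved the same way. Since the calls were made from these same differences, this describes the called genes and is not a further test. The 4 h arrays lay wholly above the untreated arrays for 3307 genes (17%) and wholly below them for 4674 (24%). Without KO replicate 1 or 3, the rises numbered 1359 and 1214 and the falls 1932 and 1964, and without the culture as a term there were 1262 rises and 1807 falls.

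Il6, the cytokine that drives fever and the acute phase response, had the highest change of all genes. It stood at 4.86, 5.1 and 4.83 in untreated KO cells and at 12.89, 12.02 and 12.55 after 4 h. The change was 7.55 (SE 0.254, adjusted p by limma 5.72e-10), or 188-fold. The untreated values were below the lower quartile of every array, where arrays measure poorly, so the fold is uncertain. Il1a, a cytokine of the interleukin 1 family, went from 6.03, 6.04 and 5.9 to 13.78, 12.89 and 13.55 (7.42, SE 0.163, adjusted p by limma 9.84e-12). Il1b of the same family rose by 6.48 (SE 0.193), from 6.84 to 7.09 untreated to 13.05 to 13.69 at 4 h. Cd69, an early marker of activated leukocytes, rose by 6.22 (SE 0.156), and Nos2, the inducible nitric oxide synthase, by 5.92 (SE 0.18). Nos2 read 7.41, 7.31 and 7.35 before LPS and 13.51, 13 and 13.34 after it. Gbp5, an interferon-induced GTPase, went from 6.93, 6.11 and 6.91 to 12.7, 12.25 and 12.79 (5.93, SE 0.129). Cxcl2, a chemokine that draws neutrophils, went from 7.32, 7.88 and 7.62 to 13.66, 13.42 and 13.23 (5.83, SE 0.262). In each of these genes the lowest 4 h array lay over 5 log2 units above the highest untreated one.

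The other genes among the 12 highest were BC023105 (5.92), Saa3 (5.64), Ifi205 (5.61), AW112010 (5.41) and Il12b (5.38), the last encoding the shared subunit of interleukins 12 and 23. Saa3, an acute phase protein, had the largest SE of these, 0.641. Its untreated levels were 6.81, 9.8 and 6.59 while all 4 h arrays lay between 13.31 and 13.48, so replicate 2 was high before LPS was given. The same untreated culture was also high for Acod1, the enzyme that makes itaconate (10.09, 11.32 and 10.01), and for Slc7a11, the cystine transporter (7.8, 9.17 and 7.98). It was low for the interferon-induced genes Ifit2 (9.59, 8.37 and 9.8) and Mx1 (8.47, 7.58 and 8.9). Of the 12 genes, Il6 and BC023105 were below the lower quartile in all 3 untreated arrays, as was Il1a.

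**Figure D1:**
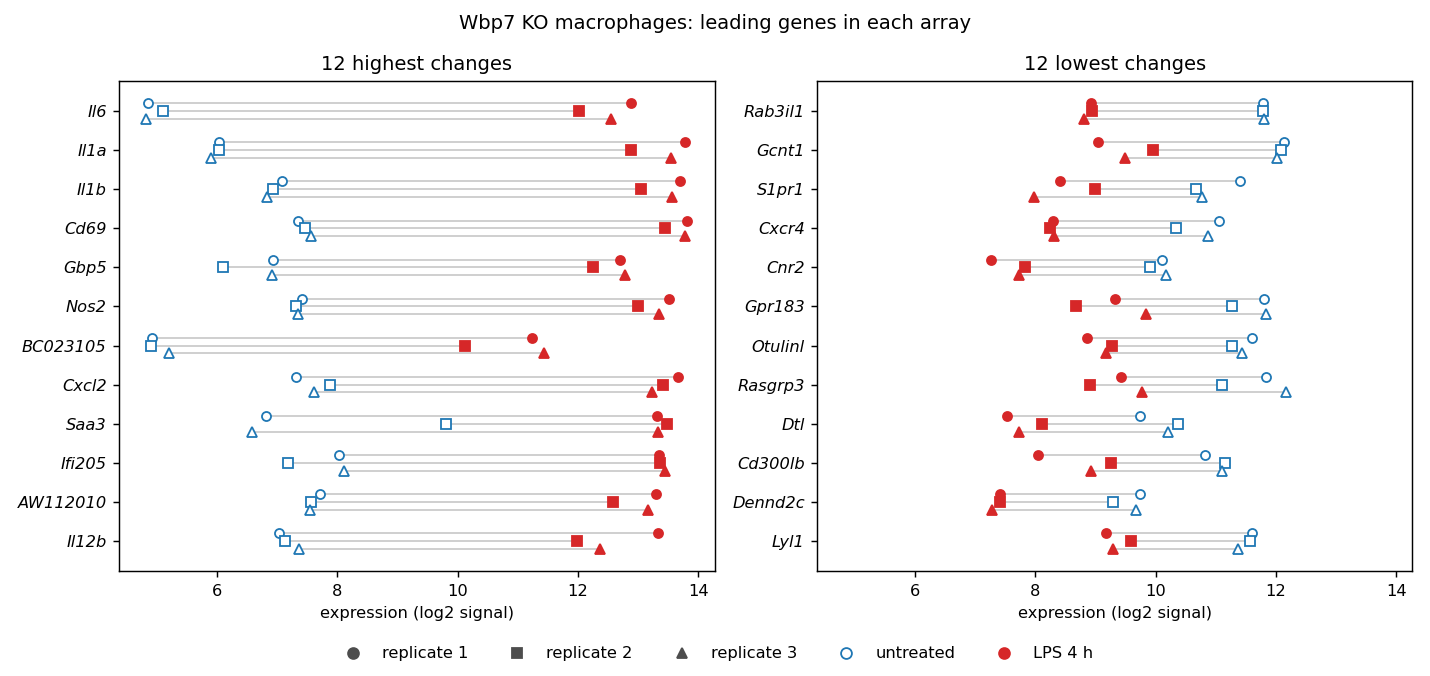
Log2 signal of the 12 genes with the highest and the 12 with the lowest changes in KO cells, with 1 line per culture from the untreated array (open blue) to the 4 h array (filled red) and 1 marker shape per replicate. The 4 h and untreated arrays do not overlap for any of the 24 genes, and the untreated Saa3 value of replicate 2 (9.8) stands apart from 6.81 and 6.59. The genes were chosen for their changes in these same arrays, so the lack of overlap is not a further test. Over all genes tested, the 4 h arrays lay wholly above for 17% and wholly below for 24%.

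Promoter sequence from RefSeq (GRCm38.p6) is shown for the first 4 of these 12 genes that had an entry and a match to a searched motif, since they include cytokine genes and an interferon-induced gene. Each sequence is the 250 bases before the transcription start, 5′ to 3′ on the gene's strand: Il6 at chr5:30012864-30013113 (plus strand), Il1a at chr2:129309973-129310222 (minus strand), Gbp5 at chr3:142496684-142496933 (plus strand) and Cxcl2 at chr5:90903649-90903898 (plus strand). Capitals mark matches on either strand to the kappa B motif bound by NF-kB, to GAAANNGAAA, a core of the interferon-stimulated response element, and to TGANTCA, the AP-1 site. Il6 has the AP-1 match at −249 to −243 and the kappa B match at −44 to −35. Il1a has an AP-1 match at −12 to −6. Gbp5 has GAAANNGAAA on the other strand at −165 to −156 and kappa B at −77 to −68. Cxcl2 has 2 overlapping kappa B matches from −97 to −87.
Il6: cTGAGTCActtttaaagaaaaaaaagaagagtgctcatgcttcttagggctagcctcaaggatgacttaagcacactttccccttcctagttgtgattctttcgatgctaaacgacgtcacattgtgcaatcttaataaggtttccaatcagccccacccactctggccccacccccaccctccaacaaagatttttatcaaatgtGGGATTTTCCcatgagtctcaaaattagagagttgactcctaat
Il1a: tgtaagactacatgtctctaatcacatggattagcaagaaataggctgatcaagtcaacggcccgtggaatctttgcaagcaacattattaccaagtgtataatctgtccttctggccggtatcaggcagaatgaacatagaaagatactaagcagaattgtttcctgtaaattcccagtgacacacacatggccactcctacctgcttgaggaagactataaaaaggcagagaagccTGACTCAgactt
Gbp5: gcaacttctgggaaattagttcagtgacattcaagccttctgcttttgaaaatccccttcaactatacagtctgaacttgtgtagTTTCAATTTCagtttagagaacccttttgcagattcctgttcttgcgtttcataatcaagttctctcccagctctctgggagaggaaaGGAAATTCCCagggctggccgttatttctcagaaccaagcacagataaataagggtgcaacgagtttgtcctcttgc
Cxcl2: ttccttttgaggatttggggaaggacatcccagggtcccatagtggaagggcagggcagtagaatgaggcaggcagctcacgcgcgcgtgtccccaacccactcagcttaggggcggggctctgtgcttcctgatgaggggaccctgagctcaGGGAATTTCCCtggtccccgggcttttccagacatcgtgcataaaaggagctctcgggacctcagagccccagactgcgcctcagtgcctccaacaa

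Over the RefSeq table, 7.25% of 32851 promoters held a kappa B match, 2.98% held GAAANNGAAA and 6.75% held TGANTCA. The 18996 promoters of the genes tested, the closer background for the sets below, gave 8.19%, 2.86% and 6.01%. The 612 genes that rose over 2-fold in KO cells had 621 promoters for 483 of them, and the shares were 15.6%, 10.8% and 7.73%. For the 384 genes that fell over 2-fold, with 423 promoters for 305 genes, they were 5.91%, 1.65% and 6.38%. Of the 13 promoters of the NF-kB list 69.2% held kappa B and 0 held GAAANNGAAA. Of the 44 promoters of the interferon list 31.8% held GAAANNGAAA and 15.9% kappa B. In the cytokine and chemokine lists together (41 promoters) the kappa B share was 29.3%. A match is a description of the letters and not a site shown to be bound.

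The receptor and the proteins next to it moved in different directions. Tlr4 itself fell, from 10.76, 10.39 and 10.65 to 9.08, 9.76 and 9.81 (−1.05, SE 0.248, adjusted p by limma 0.00603), though without KO replicate 1 the change was −0.73 and the adjusted p 0.11. Cd14 rose, from 12.48, 12.33 and 12.48 to 13.39, 13.35 and 13.29 (0.92, SE 0.0893, adjusted p by limma 5.95e-06). Ly96 showed −0.25 and was not called. Of the 17 measured genes of the receptor and its adaptors 8 rose and 1 fell, with a median of 0.32. The rises included the adaptor Myd88 (1.25), the kinases Ikbke (2.32), Irak2 (1.90) and Map3k8 (1.82), and Irak3 (1.36), an inhibitor of the pathway. Among 8 other Toll-like receptors 7 rose and 1 fell. Tlr3, the receptor for double-stranded RNA, rose by 2.51 (SE 0.151), from 8.45, 8.12 and 7.67 to 10.97, 10.31 and 10.49. Tlr2, which senses bacterial lipoproteins, rose by 1.85, Tlr1 by 1.41 and Tlr6 by 1.15. Tlr13, a sensor of bacterial ribosomal RNA, fell by 1.15.

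All 12 measured genes on the list named NF-kB subunits and inhibitors rose, between 0.55 and 3.35 with a median of 1.78. Tnfaip3, the deubiquitinase that limits NF-kB signalling, had the highest change (3.35, SE 0.15), with 9.09, 9.53 and 9.25 before and 12.84, 12.41 and 12.69 after LPS. Nfkbiz (2.6) and the inhibitors Nfkbie (2.56) and Nfkbia (2.11) followed. Of 15 genes for AP-1 and immediate early factors 5 rose and 2 fell, with a median of 0.07. Egr2 (1.98), Ier3 (1.76), Atf3 (1.49), Junb (1.43) and 1 other gene rose, and Jun (−0.73) and Fosb (−0.72) fell, Jun with an adjusted p of 0.0966 by limma without KO replicate 3. Of 14 genes for MAP kinase phosphatases and mRNA decay factors 8 rose and 3 fell (5 rose without KO replicate 1). The rises included Zc3h12c (2.52), Dusp16 (2.16), Dusp2 (2.15), the RNase gene Zc3h12a (1.76) and Zfp36 (1.32), the tristetraprolin that shortens the life of cytokine mRNAs. The 2 relatives of Zfp36 went the other way: Zfp36l2 fell by 2.06 and Zfp36l1 by 1.78, with no overlap between the arrays. In the list of SOCS and STAT genes, 7 of 14 rose and 4 fell, or 1 and 2 without KO replicate 1 or 3. Socs3, which blocks signalling by the Il6 receptor, went from 8.45, 8.47 and 8.11 to 12.79, 12.49 and 12.62 (4.29, SE 0.103). Socs1 (3.12), Cish (2.43) and Stat2 (2.06) also rose.

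Of 28 measured cytokine genes 22 rose and 0 fell, and the median was 1.39. Beside Il6, Il1a, Il1b and Il12b, endothelin Edn1 rose by 4.51 (SE 0.293). Tnf, chosen after its values were seen, went from 11.69 to 11.71 untreated to 14.05, 13.89 and 13.9 (2.24, SE 0.119). Ifnb1, the main early type I interferon and likewise chosen after its values were seen, went from 6.28, 6.15 and 6.23 to 7.48, 6.6 and 6.83 (0.75, SE 0.234, adjusted p by limma 0.028), with values near the lower quartile of the arrays. Without KO replicate 1, 2 or 3 its adjusted p was 0.263, 0.0575 and 0.0997. Of 24 chemokine genes 17 rose and 1 fell (0 without any one KO replicate), with a median of 1.91. Cxcl9 (4.92), Cxcl11 (4.81), Ccl5 (4.53) and Cxcl3 (4.24) had the highest changes after Cxcl2. Ccl5 reached 14.18, 14.14 and 14.18 at 4 h.

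All 41 measured genes of the type I interferon response rose, by 0.91 to 5.93, with a median of 2.53, beside 10.7% of all genes. After Gbp5 and Ifi205, the highest were the GTPase Iigp1 (5.08), Ifit2 (4.55), a tetratricopeptide protein that restrains translation of viral RNA, and Mx1 (4.52), a GTPase that acts on influenza viruses. The mean signal of the list was 10.18, 9.58 and 10.42 in the 3 untreated KO arrays and 12.87, 12.65 and 12.89 after LPS. Replicate 2 was the lowest before and after, and the spread between cultures was smaller at 4 h. Genes of antigen presentation through MHC class I moved with them: 11 of 12 rose and 0 fell, with Nlrc5, the activator of class I genes, at 2.63 and the peptide transporters Tap1 and Tap2 at 1.98 and 1.57. In the class II list 7 of 10 rose and 0 fell. Cd40, a receptor for signals from T cells, rose by 3.62, from 10.16, 9.78 and 9.85 to 13.86, 13.11 and 13.67, and the class II chain H2-Ab1 rose by 1.2. The H2-Ab1 call was lost with the culture as a random block (adjusted p by limma 0.121) or without it (0.456), and the rises of the class II list then numbered 3 and 1.

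Of 15 measured genes for arginine, itaconate and prostaglandin metabolism 7 rose and 5 fell. With Nos2 rose the arginine transporter Slc7a2 (4.05), Acod1 (3.91) and the prostaglandin enzymes Ptgs2 (3.85) and Ptges (3.18). Ptgs2 read 10.43, 9.27 and 10.14 before LPS and 14.06, 13.51 and 13.83 after it. Hpgds (−0.71) and Tbxas1 (−0.69), which make prostaglandin D2 and thromboxane, fell. The falls of this list numbered 2 and 3 without KO replicate 1 or 2. Of 12 inflammasome and pyroptosis genes 8 rose and 3 fell. The sensors Nod1 (3.38), Nod2 (2.64) and Nlrp3 (2.28), the caspase Casp4 (2.88) and Mefv (2.39) rose, and Nlrp1b fell by 1.34. Of 21 genes for coagulation, matrix and complement 9 rose and 2 fell (1 without KO replicate 1 or 3). Complement factor Cfb (4.15) and the proteases Mmp14 (3.34) and Mmp13 (2.72) rose, and Plau, the urokinase, fell from 13.53, 12.55 and 13.43 to 11.76, 10.92 and 11.87 (−1.65).

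Among the falls, Rab3il1, an exchange factor for a Rab GTPase, had the largest and was nearly level between cultures: 11.78, 11.78 and 11.8 untreated against 8.93, 8.94 and 8.81 (−2.89, SE 0.273, adjusted p by limma 4.46e-06). Gcnt1, a glycosyltransferase of O-glycans, fell by 2.59 (12.13, 12.09 and 12.02 to 9.04, 9.95 and 9.49). Next came 4 G protein-coupled receptors: S1pr1 (−2.49) for sphingosine 1-phosphate, Cxcr4 (−2.47) for Cxcl12, Cnr2 (−2.45) for cannabinoids and Gpr183 (−2.35) for oxysterols. Cxcr4 read 11.06, 10.34 and 10.88 before LPS and 8.3, 8.25 and 8.31 after it. Otulinl, Rasgrp3, Dtl, Cd300lb, Dennd2c and Lyl1 completed the 12, between −2.33 and −2.16. Dtl is a part of the ubiquitin ligase that destroys replication licensing factors.

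Of 37 measured cell cycle genes 32 fell and 0 rose, beside 17.9% of all genes, and the median was −0.68. The medians in the 3 KO cultures were −0.65, −0.68 and −0.69, and without KO replicate 1 the falls numbered 18. With the culture as a random block 7 members fell, and without it 3. Without HET replicate 1, which shares the estimate of spread, 35 fell. Cyclin Ccne2 fell from 10.07, 10.4 and 10.09 to 8.06, 8.94 and 8.34 (−1.73), Cdc6, which loads the replicative helicase, by 1.09, and the spindle checkpoint kinase Bub1b by 1.01 (adjusted p by limma 0.0612 without KO replicate 1). Mki67, the proliferation marker, read 13.04, 12.85 and 12.9 before and 12.52, 12.5 and 12.56 after LPS (−0.40, SE 0.419) and was not called. Its HET changes were 1.99, −0.84 and −0.6, and without HET replicate 1 the KO change had an adjusted p of 0.000864 by limma. In bulk RNA, fewer dividing cells and less of these transcripts per cell cannot be told apart. Genes of cholesterol synthesis and uptake went the same way, with 11 of 18 falling, 0 rising and a median of −0.47 (6 and 4 falls without KO replicate 1 or 3). Dhcr7 (−1.08), Stard4 (−0.93), Msmo1 (−0.90) and Sqle (−0.79) had the largest falls, Msmo1 with an adjusted p of 0.0534 by limma without KO replicate 3. Of 22 ribosome biogenesis genes 5 fell and 1, Wdr43 (0.90), rose, with a median of −0.19, and 5 of 22 is near the 17.9% of all genes that fell. Nop56 (−0.61) had the largest fall. The falls numbered 1, 2 and 1 without KO replicate 1, 2 or 3 and 9 without HET replicate 1.

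The genes of histone H3 lysine 4 methylation fell or were not called. Of 23 measured 11 fell and 0 rose. The largest falls were those of Setd7 (−0.73), Pagr1a (−0.68), Paxip1 (−0.63) and Kmt2c (−0.51). The median was −0.31, and without KO replicate 1 or 3 the falls numbered 6 and 7. Of 20 histone demethylase genes 3 rose and 3 fell (1 rose without KO replicate 3, 5 fell without HET replicate 1). Both counts are near the shares of all genes, 10.7% rising and 17.9% falling. Kdm6b, which removes methyl groups from lysine 27, rose from 8.75, 8.68 and 8.87 to 10.37, 10.06 and 10.09 (1.41), and Kdm2b fell by 1.03.

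Macrophage lineage genes changed in both directions, with 7 of 25 rising and 7 falling and a median of −0.12. The lectin receptor Clec4e (1.87) and the transcription factor Cebpb (1.09) rose. Cebpa (−1.56), the efferocytosis receptor Mertk (−1.34) and the fractalkine receptor Cx3cr1 (−0.99) fell. Cd68 read 13.95 to 13.99 before LPS and 13.84 to 13.85 after it and was not called. Markers of other cell types gave few calls, beside 28.6% of all genes. These were 0 of 5 for T cells, 0 of 3 erythroid, 0 of 6 for mast cells and 1 of 5 for B cells (lower). For neutrophils 1 of 10 and for dendritic cells 1 of 6 were called (higher), neither of them without any one KO replicate. In untreated KO arrays 4 of the 6 mast cell, 2 of the 3 erythroid and 2 of 5 each of the T and B cell markers lay below the lower quartile. Changes there are hard to see, so a missing call says little. Of 6 stromal markers 3 rose, Pdgfrb by 1.76, and their mean signal lay at 7.42 to 7.83 before LPS and 7.86 to 8.3 after it. Without KO replicate 2 or 3, 1 of them was called. The part of such cells in the rises was not tested.

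Among metabolic and stress genes, 9 of 22 for glycolysis and hypoxia rose and 0 fell, led by Pfkfb3, which makes the activator of phosphofructokinase (1.94), with Hk2 (0.69) and the glucose transporter Slc2a1 (0.57). Of 19 glutathione and Nrf2 genes 4 rose and 2 fell (1 without KO replicate 1 or 3), beside 10.7% and 17.9% of all genes. Slc7a11 rose by 4.25 and Sod2 by 1.51, whereas Gclc, the first enzyme of glutathione synthesis, fell from 12.21, 12.48 and 12.33 to 10.66, 11.66 and 10.74 (−1.32). Of 22 genes of the unfolded protein and integrated stress responses 1 rose, Ppp1r15a (1.5), and 4 fell, Eif2ak3 most (−1.2). The 4 of 22 is near the 17.9% of all genes that fell, and 8 fell without HET replicate 1. In the LXR list, 4 of 13 rose and 3 fell, and without KO replicate 1, 2 or 3 the rises numbered 1, 2 and 1 and without replicate 1 or 3 the falls 1. Ch25h, which makes 25-hydroxycholesterol, rose by 2.27 from untreated levels that differed widely (12.64, 10.11 and 10.97), and Scd2 fell by 1.98. Of 15 p53 targets 5 rose, Gadd45b (1.99) and Btg2 (1.41) most, and 5 fell, Sesn1 most (−1.90). Without any one KO replicate 3 of them rose, and without replicate 3 the falls were 2.

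For Pigp, the probe set with the higher signal (10441055) read 8.34, 8.56 and 8.4 before LPS and 8.77, 8.61 and 8.75 at 4 h (0.28, SE 0.091, adjusted p by limma 0.0373), and the adjusted p was 0.273 and 0.198 without KO replicate 1 or 3. The other Pigp probe set moved both ways, from 5.43, 4.58 and 5.34 to 4.68, 5.65 and 4.32, and with the mean of both the change was 0.02 (adjusted p by limma 0.939). Of 28 biosynthesis genes 3 rose and 9 fell, beside 10.7% and 17.9% of all genes, with a median of −0.14. Pigv, a mannosyltransferase, rose by 1.01 and Pgap2 by 0.85, and Piga, the catalytic subunit of the complex that holds Pigp, fell by 0.66. The falls numbered 2, 3 and 1 without KO replicate 1, 2 or 3. Of 26 genes for GPI-anchored proteins 9 rose and 3 fell (1 without KO replicate 1 or 3), with Mmp25 (2.56), Ly6i (1.95) and the IgG receptor Fcgr4 (1.51) highest.

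**Figure D2:**
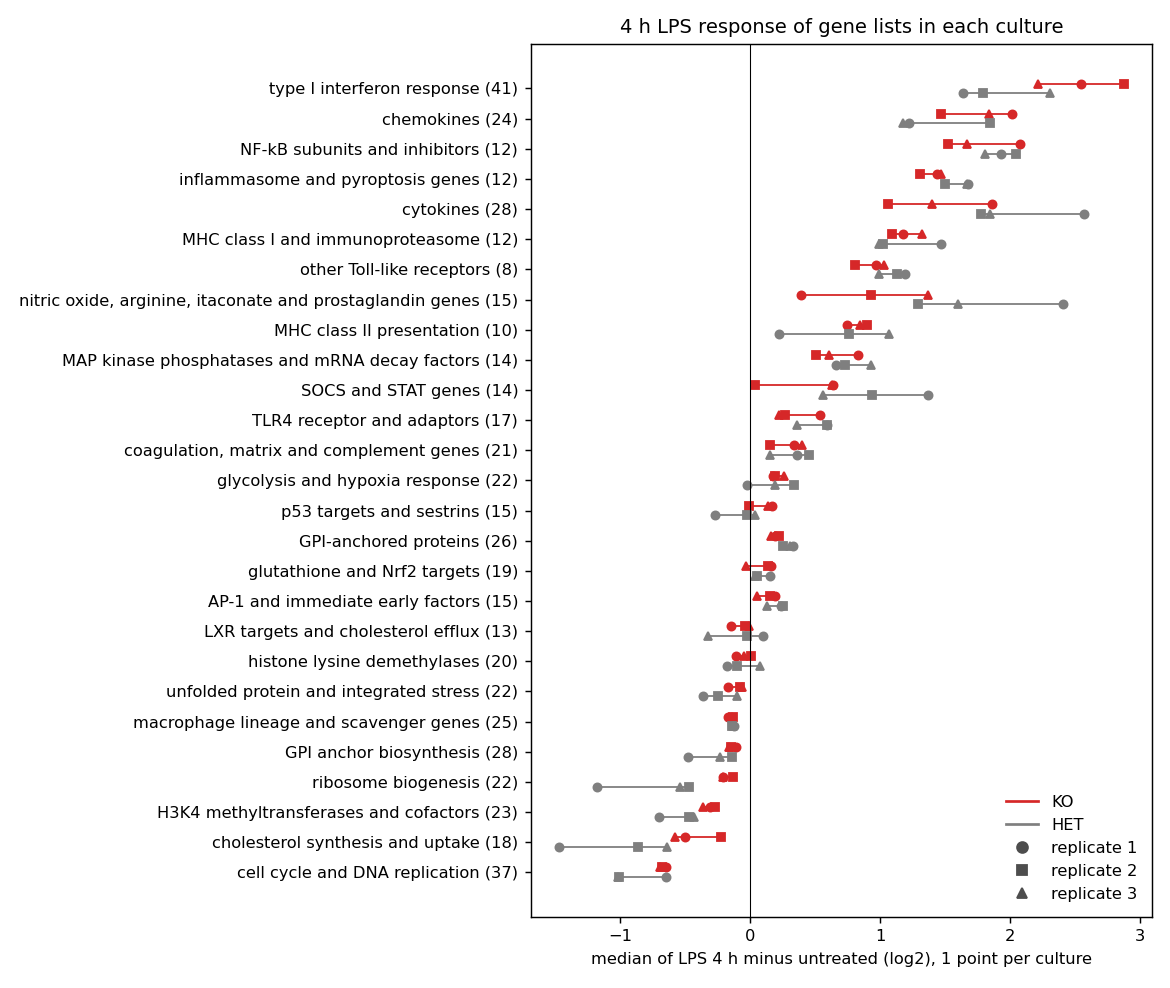
Median change of each gene list (number measured in brackets) at 4 h of LPS in each KO culture (red) and HET culture (grey), with 1 marker shape per replicate and a line over the range. The interferon list has the highest KO median (2.22 to 2.88 in the 3 cultures) and the cell cycle list the lowest (−0.69 to −0.65).

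The comparison of 4 h with 2 h in KO cells asked which parts of the response were still building. At 2 h, 805 genes were above untreated (4.13%) and 781 below (4.01%), 8.14% together, and past 2-fold 275 (1.41%) and 58 (0.298%). The 12 NF-kB genes and 34 of the 41 interferon genes were already among those above. Between these times 963 genes were higher at 4 h (4.94%) and 1194 lower (6.13%), and past 2-fold 276 (1.42%) and 55 (0.282%), 11.1% of genes in either direction. With array medians set equal, 56.7% of the called genes were higher at 4 h, against 44.6% as deposited. The counts were 520 and 170 without KO replicate 1, 520 and 263 without replicate 3, and 674 lower without replicate 2, and 523 and 329 without the culture as a term. The lower genes numbered 2316 without HET replicate 1. The gene groups differed in timing. All 41 interferon response genes were higher at 4 h than at 2 h, by 0.34 to 4.26 with a median of 1.36, as were 10 of 12 class I genes. In the NF-kB list 0 of 12 were called either way, and their differences lay between −0.33 and 0.18. Of 28 cytokines 12 were higher and 2 lower, and of 37 cell cycle genes 18 were lower and 0 higher.

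The latest genes were those of interferon-induced proteins. Iigp1 read 6.34, 5.72 and 6.22 untreated, 6.62, 6.73 and 7.38 at 2 h and 11.44, 10.69 and 11.37 at 4 h (4.26 between 2 h and 4 h, SE 0.331, adjusted p by limma 7.07e-06). BC023105 (4.52), Ifi208 (4.16), Gbp4 (3.77), Gm4951 (3.72), the death ligand Tnfsf10 (3.63), Ifi206 (3.50) and Ifit3b (3.40) made up the 8 highest. Tlr3 read 8.37, 8.01 and 8.08 at 2 h in cultures that had started at 8.45, 8.12 and 7.67, and was 2.44 higher at 4 h (SE 0.151). Il6 was still building, with 9.49, 9.46 and 9.56 at 2 h and a further 2.98 (SE 0.254) by 4 h, and so was Nos2 (2.39). Cxcl2 had 13.62, 13.24 and 13.23 at 2 h and differed by 0.07 at 4 h, and Socs3 by 0.12, neither of them called.

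Of the 612 genes that rose over 2-fold at 4 h, 5 were past their peak. Genes that had come back closer to untreated by 4 h are not in this count. Egr2, Kdm6b, Cd83, Gadd45a and Icosl, chosen after their values were seen, were over 2-fold above untreated at 4 h but lower than at 2 h. Cd83, a surface protein of mature antigen-presenting cells, went from 9.43, 8.37 and 9.62 to 13.28, 11.51 and 13.05 at 2 h and 12.17, 10.06 and 12.1 at 4 h (−1.17 between 2 h and 4 h, SE 0.185, adjusted p by limma 0.00115). Egr2 differed by −1.06, Gadd45a by −0.70, Kdm6b by −0.65 and Icosl, the ligand of the T cell receptor Icos, by −0.52. Dusp6, a phosphatase of ERK and also chosen after its values were seen, ran in reverse, from 11.9, 11.55 and 11.59 to 8.71, 9.36 and 8.82 at 2 h and 9.74, 10.58 and 10.04 at 4 h. Without KO replicate 1 its fall from untreated had an adjusted p of 0.063 by limma. The largest further falls after 2 h were those of Rab3il1 (−1.76), the palmitoyltransferase Zdhhc14 (−1.58), Rasgrp3 (−1.52), Slco4a1 (−1.49), Mtss1 (−1.49), Pde3b (−1.48), Gcnt1 (−1.45) and Fbxo5 (−1.44).

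**Figure D3:**
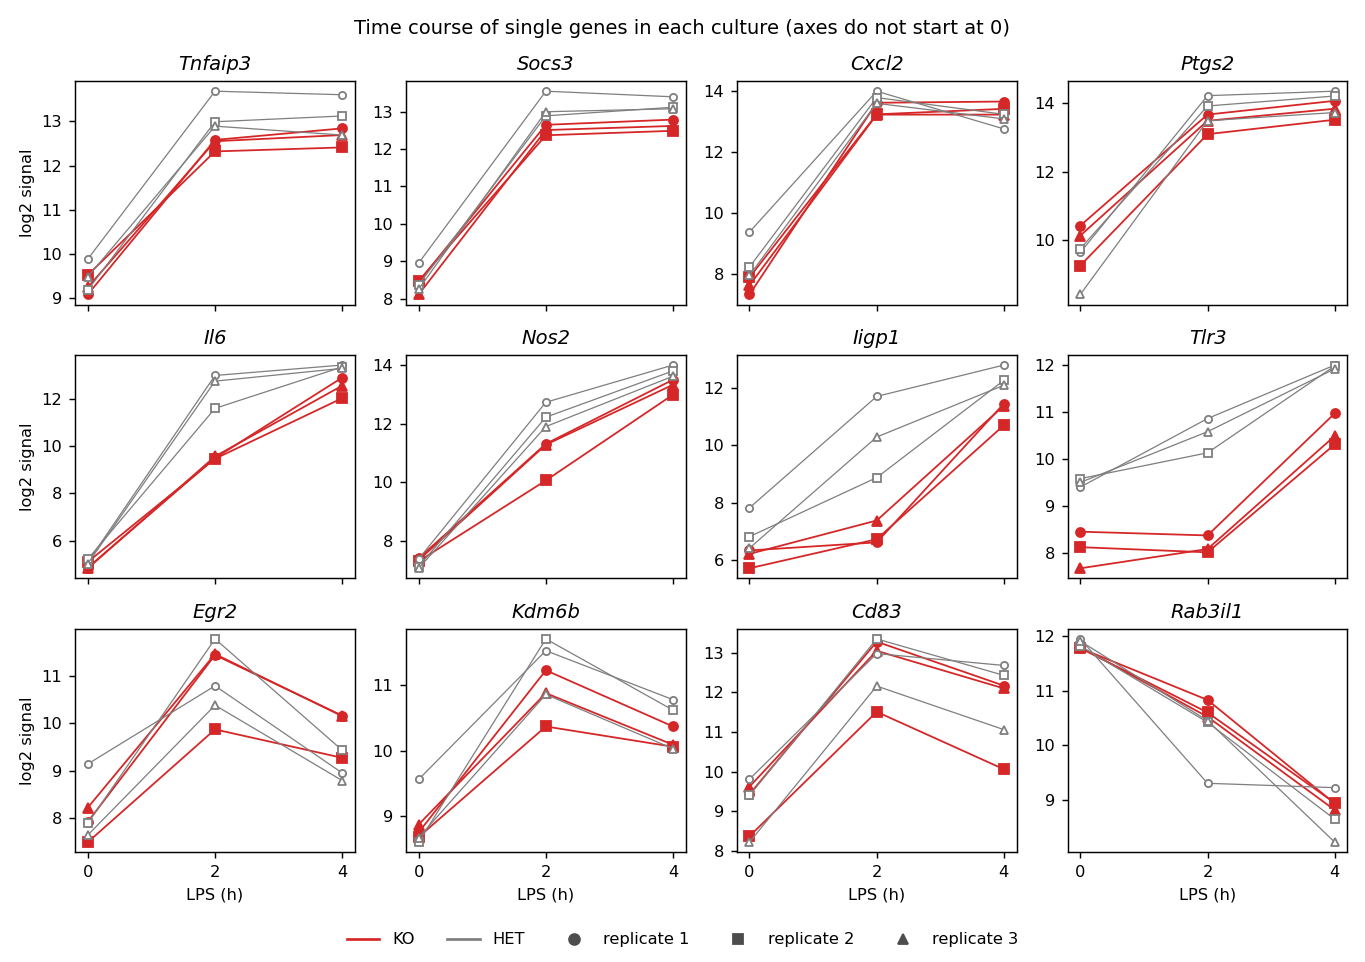
Log2 signal of 12 genes at 0, 2 and 4 h of LPS, with 1 line per culture (KO red, HET grey). In KO cells Tnfaip3, Socs3 and Cxcl2 reach their level by 2 h, Iigp1 and Tlr3 move between 2 h and 4 h, and Egr2, Kdm6b and Cd83 are lower at 4 h than at 2 h.

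The same contrast in HET cells asked how far the KO response was that of cells with 1 intact allele. Most of the KO response was found there too: of the 612 genes that rose over 2-fold in KO, 607 rose in HET, where 26.7% of all genes did, and of the 384 that fell, 381 fell in HET (28.3% of all genes). Without HET replicate 1 these counts were 608 and 382. HET cells had more calls, with 5202 genes higher and 5517 lower, or 55% of those tested. Past 2-fold, 858 were higher (4.41%) and 1091 lower (5.6%). Leaving out HET replicate 1, the HET calls numbered 3576 higher and 4845 lower, and past 2-fold 795 and 946. Counted in each culture, 661, 533 and 661 genes were over 2-fold higher in the KO cultures and 1053, 829 and 772 in the HET cultures. Lower genes numbered 511, 312 and 436 in KO and 1721, 987 and 968 in HET. The genotypes did not overlap in either count. The exact permutation test (two-sided) gave p = 0.1 for each, the smallest that 3 against 3 cultures allow.

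The difference between the responses was called by limma for 115 genes (0.591%), 59 of them higher in KO (0.303%) and 56 lower (0.288%), and past 2-fold for 17 (0.0873%) and 29 (0.149%). This count depends strongly on the cultures: it was 4, 3 and 9 without KO replicate 1, 2 or 3, and 257 and 250 without HET replicate 1 or 2, with 99 and 91 genes shared. Without the culture as a term it was 10. With array medians set equal, 36.2% of the called genes were higher in KO, and 37% after quantile normalization, against 51.3% as deposited. In 103 of the 115 the change in KO had the sign of that in HET and was smaller, in 0 it was larger, and in 12 the signs differed. For 11 of these 12 the KO change itself was not called, so its sign is uncertain. Nr1h3 was the 1 with a called KO change. For all 115 the 3 KO changes lay outside the range of the 3 HET changes, which over all genes held for 2358 above (12.1%) and 2175 below (11.2%). Since the difference is made of both responses, these counts describe the called genes and are not a further test.

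Among the genes whose rise was smaller in KO, Rasgrp1, an activator of Ras, had the smallest p of those named. It read 7.33, 7.01 and 7.21 untreated and 9.53, 8.99 and 9.89 at 4 h in KO, against 7.47, 7.22 and 7.18 and 11.76, 11.13 and 11.23 in HET (difference of responses −1.79, SE 0.163, adjusted p by limma 0.000658). Gnb4, a G protein beta subunit, went from 7.32, 6.93 and 6.88 to 8.5, 7.64 and 8.39 in KO and from 7.83, 8 and 7.8 to 11.24, 11.23 and 10.8 in HET (−2.08, SE 0.261, adjusted p by limma 0.00826). In both genes the 4 h KO arrays lay over 1 log2 unit below every 4 h HET array, while the untreated levels of Rasgrp1 overlapped. F3, the tissue factor that starts coagulation, had the largest difference (−2.58, SE 0.478, adjusted p by limma 0.0396). Its change was 1.01 in KO, with an adjusted p by limma of 0.161, 0.123 and 0.205 without KO replicate 1, 2 or 3, and 3.60 in HET, where replicate 1 was high (4.88, 3.3 and 2.61). Lhx2 (−2.03), the matrix proteoglycan Vcan (−1.95, with HET changes of 4.95, 3.26 and 3.26), the receptor gene Klrk1 (−1.66), Lpar1 (−1.61), Dcbld2 (−1.59) and, chosen after its value was seen, the prion protein gene Prnp (−0.90) were also called.

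Among the genes whose fall was smaller in KO, Sesn1, a sestrin that restrains growth signalling, went from 12.02, 12.34 and 12.36 to 10.05, 10.39 and 10.58 in KO and from 11.61, 11.99 and 12.27 to 7.48, 8.21 and 8.24 in HET (2.08, SE 0.405, adjusted p by limma 0.0451). Cx3cr1 fell by 0.99 in KO, and its HET changes were −3.53, −2.2 and −2.33, with replicate 1 the lowest (1.69, SE 0.26). Gnl3 (1.57) and Tsr1 (1.26), both of ribosome assembly, the transcription factor Bhlhe41 (1.43), Gapt (1.35) and Mtss1 (1.07) were called as well, as were Ccna2 (0.66) and Cenpa (0.58) of the cell cycle list, both chosen after their values were seen. On that list HET replicate 1 stood far from the other cultures: its Ccna2 read 9.01 untreated against 12.93 and 12.84 in the other HET cultures. Without that replicate 8 of the 37 cell cycle genes were called in the difference, against 2 with it, and the part of that culture in the result was not tested. The KO change of Gapt itself (−0.37) was not called. Nr1h3, the oxysterol receptor LXR alpha, had opposite signs: 8.93, 9.5 and 9.34 became 9.75, 10.14 and 10.08 in KO (0.73, adjusted p by limma 0.0703 and 0.056 without KO replicate 1 or 3), and 9.99, 9.11 and 10.16 became 8.85, 9.09 and 9.78 in HET (−0.51). The HET changes of Nr1h3 were −1.14, −0.02 and −0.38, so its fall there was largest in replicate 1. Without HET replicate 1, with array medians set equal or after quantile normalization its difference was not called. Rrs1, a further ribosome assembly gene, showed 0.35 in KO, not called, and −0.80 in HET (1.16).

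**Figure D4:**
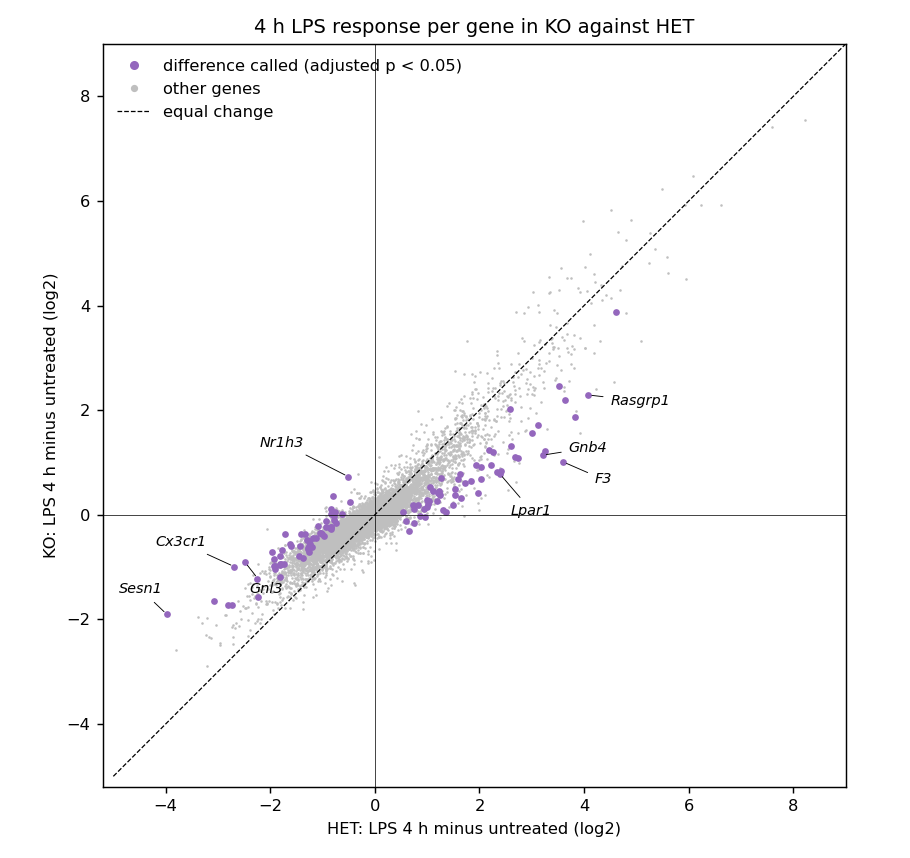
Change at 4 h of LPS for each of 19475 genes in KO (vertical) against HET (horizontal), both log2, with the dashed line at equal change. The 115 genes whose difference was called (purple) include 103 with the same sign and a smaller change in KO and 12, Nr1h3 among them, with opposite signs. The KO change was not called for 11 of these 12 and was called for Nr1h3.

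By group, 0 of 41 interferon genes were called in the difference. Only 0.591% of all genes were, so a 0 in a list of this size says little. The list median was 2.53 in KO and 1.90 in HET (2.1 in HET without replicate 1), and 39 of the 41 KO changes were the larger. Over all genes the median difference of responses was −0.018. The members come from the same cultures and are not separate tests. The untreated list mean was 10.18, 9.58 and 10.42 in KO and 11.41, 10.87 and 10.43 in HET, and at 4 h 12.87, 12.65 and 12.89 against 13.33, 13.09 and 13.03. In the ribosome biogenesis list 20 of 22 genes fell in HET, beside 28.3% of all genes, and 5 in KO, beside 17.9%. The culture medians were −0.21, −0.13 and −0.21 in KO and −1.18, −0.47 and −0.54 in HET, and 0 members were called in the difference. The ribosome assembly genes Gnl3, Tsr1 and Rrs1, called in the difference above, are not on this list, so the 0 holds for its members alone. Cholesterol genes gave 17 of 18 falls in HET and 11 in KO, with culture medians of −0.5, −0.22 and −0.58 in KO and −1.47, −0.86 and −0.64 in HET, again with 0 called. Without HET replicate 1 the HET falls were 14 of 22 and 15 of 18, and 1 ribosome gene was called in the difference. For both lists HET replicate 1 was the lowest of the 6 cultures and the KO and HET ranges did not overlap. Myc, a transcription factor that drives ribosome genes, read 12.01, 11.97 and 12.08 before LPS and 11.26, 12.03 and 11.96 at 4 h in KO (−0.27), and its changes in the HET cultures were −2.74, −2.45 and −0.99. The difference of 1.79 (SE 0.432) was not called (adjusted p by limma 0.0801).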

How the data were processed

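The study measured RNA from mouse bone marrow macrophages on Affymetrix gene arrays, with 3 arrays in each of 6 groups. The values are log2 signals of 25344 probe sets that the authors made by RMA with Partek 6.5, per the submitters' processing notes. Probes were named through the platform annotation: 21137 probe sets had 1 gene, 1530 several and 2677 none. A gene kept its probe set of highest mean signal, which left 19475 genes (915 had several probe sets). Changes were fitted on all 18 arrays with limma 3.58.1 (R 4.3.3), with a term for each culture and for each time within a genotype, and Benjamini-Hochberg adjustment. Arrays of one genotype with the same replicate number deviated together from their group means (r of 0.32 to 0.5 over 9 KO pairs, 0.48 to 0.8 over 9 HET pairs), and numbers did not pair genotypes. The number of arrays limits the precision. In simulated data 100 genes were changed at each of 2 sizes, in KO at 4 h alone, and no other LPS effect was present. There the fit recovered 94% of changes of 1 log2 unit in KO and 70% of 0.5, and 85% and 32% for the difference between genotypes. Far more genes were called in the real data, so the rates there may differ. Named genes are Kmt2b, Pigp, Cd14, the 12 highest and 12 lowest changes, up to 5 rises, 4 falls and 2 uncalled genes per list, and the 8 highest and lowest of the other comparisons; others are said to be chosen after their values were seen. The genes and lists were chosen with earlier results of these data known. Alternatives covered the block, normalization, dim genes, probe sets, prior, weights, threshold and the arrays used. The counts in HET without replicate 1 were added after seeing the data.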

Additional observations from a re-analysis of the deposited data

Results flagged for a closer look

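The response at 4 h of LPS differed between the genotypes by limma's test of the difference itself for 20 of the genes named above, and the values here are the log2 response in KO minus that in HET. The largest values below 0, a smaller rise in KO, were those of F3 (−2.58), Gnb4 (−2.08), Lhx2 (−2.03), Vcan (−1.95), Rasgrp1 (−1.79), Klrk1 (−1.66), Lpar1 (−1.61), Dcbld2 (−1.59) and Prnp (−0.9). The values above 0 were those of Sesn1 (2.08), Cx3cr1 (1.69), Gnl3 (1.57), Bhlhe41 (1.43), Gapt (1.35), Tsr1 (1.26), Nr1h3 (1.25), Rrs1 (1.16), Mtss1 (1.07), Ccna2 (0.66) and Cenpa (0.58). None of these 20 calls held in every alternative that was run. Their direction was the same in each.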

How the results depend on the processing

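Of the 159 genes named with a called KO response, 140 kept the call in every alternative, and 0 named values changed sign. Most of them were chosen for large changes, so this share does not hold for all called genes. Of all 5575 KO calls, 3069 were kept with no replicate block. Without KO replicate 1, 2 or 3 the calls kept numbered 3247, 4050 and 3157. Calls lost in KO with no replicate block numbered 16 (Bub1b, Ccna2, Ccne2, Cenpa, Cx3cr1, Dcbld2, F3, Fbxo5, H2-Ab1, Hk2, Hpgds, Ifnb1, Jun, Nr1h3, Pigp and Slc2a1), and with a random block 5 (Bub1b, Ccna2, Cenpa, F3 and H2-Ab1). Without the block, members rising in KO numbered 1 for glycolysis, 4 for other Toll-like receptors and 5 for coagulation, and members falling 6 for cholesterol, 4 for GPI biosynthesis and 3 for macrophage lineage genes. Without a replicate block the KO response gave 1262 genes higher and 1807 lower, HET 3057 higher, the difference between genotypes 2 and 8, and 4 h against 2 h 523 and 329. A 2-fold minimum left 612 and 384 in KO, 858 and 1091 in HET, 17 and 29 in the difference and 276 and 55 between 4 h and 2 h. Leaving out a KO replicate gave 1214 to 1636 higher and 1932 to 2542 lower in KO, 0 to 1 and 3 to 9 in the difference, and 520 to 694 and 170 to 674 between the times. Leaving out a HET replicate gave 63 to 169 higher and 72 to 100 lower in the difference, and without HET replicate 1 the KO response gave 2457 and 4241 and the times 1223 and 2316. Array weights, whose estimation stopped before convergence, gave 191 and 115 in the difference and 1638 and 2901 between the times. The difference had 29 genes higher with centred arrays and 34 after quantile normalization. HET had 2898 higher without dim genes and 2708 from its 6 arrays alone. Genes lower at 4 h than at 2 h numbered 2285 from KO arrays alone and 2067 from 6 arrays. The cause was not tested. Untreated signals below the lower quartile of an array limit what the largest folds can show.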
